A study of Mus musculus with 5 samples.

Results

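The genes described here encode the ubiquitin-conjugating enzymes of the Ube2 family, read by RNA-seq in 2-cell mouse embryos. They were taken by symbol: every row of the expression table whose name starts with Ube2 and holds no -ps ending, which gave 38 of 32285 genes. Oocytes of superovulated females aged 6 to 9 weeks, with their cumulus cells, were fertilised in vitro for about 6 h with sperm of males aged 12 to 16 weeks. Eggs with both pronuclei were then assigned at random to KSOM medium holding either 25 nM PNMC or an equal volume of DMSO, and were kept there for 24 h. There were 3 PNMC libraries and 2 DMSO control libraries, made with Smart-seq2 from TRIzol-extracted total RNA. The labels give neither the mouse strain, nor the number of embryos in a library, nor what PNMC stands for. No label ties a library to a culture of its own, so every p-value here reflects the scatter of these libraries alone, part or all of which may be technical.

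Ubiquitin is activated by an E1 enzyme, handed to the catalytic cysteine of an E2 conjugating enzyme, and passed to a substrate with the help of an E3 ligase. The E2 largely sets which chain is built and therefore whether a protein is degraded, relocated or used in signalling, and some E2s carry SUMO, NEDD8 or ISG15 in place of ubiquitin. In the early embryo this system removes maternal proteins and drives the exit from meiosis and mitosis. Most of the 38 rows are E2s or inactive E2 variants. Exceptions are Ube2cbp, whose RefSeq synonym is Ube3d and which is known as an E3 ligase that binds Ube2c, and the long non-coding RNA Ube2uos.

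Many but not all of the coding sequences share a stretch around the catalytic cysteine. Genes with this symbol are named as E2s, so the feature is not independent of the choice by name. In GENCODE M21 coding sequences, 20 of the 38 members hold codons for histidine, proline and asparagine followed by 7 codons and a cysteine codon. Another 3 members (Ube2h, Ube2k and Ube2u) have the histidine-proline-asparagine codons but no cysteine codon at that spacing, 14 have neither, and Ube2uos has no coding sequence. The inactive variants Ube2v1 and Ube2v2, which lack a catalytic cysteine, are among the 14. Ube2e1, Ube2e2 and Ube2e3 are there too. A place among the 14 means that the histidine-proline-asparagine codons were not found, not that a catalytic cysteine is missing. The stretch of 14 codons is shown for Ube2d3, Ube2s and Ube2c, which have it and were listed at high values, and for the closely related Ube2a and Ube2b, with the cysteine codon in capitals.
Ube2d3: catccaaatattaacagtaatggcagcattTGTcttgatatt
Ube2s: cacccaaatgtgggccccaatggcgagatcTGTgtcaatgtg
Ube2c: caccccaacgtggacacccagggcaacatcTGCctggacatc
Ube2a: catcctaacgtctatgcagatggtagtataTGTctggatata
Ube2b: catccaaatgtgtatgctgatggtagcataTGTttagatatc
The capitals mark codon 85 of Ube2d3, 95 of Ube2s, 114 of Ube2c, and 88 of both Ube2a and Ube2b. Over their coding sequences, Ube2a and Ube2b are identical at 77.6% of 459 aligned bases, and no stretch of 50 bases in their transcripts occurs in another gene. The pair Ube2dnl1 and Ube2dnl2 is closer, at 94.7% of 468 bases.

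The values are normalised expression levels with no unit named in the labels. Among genes listed in 1 library only, log2 values were lower for longer transcripts, with slopes of -0.579 to -0.383 per log2 length in all 5 libraries, but no label says whether values were divided by length. The order of 2 genes in the table is therefore an order of listed values and not of transcript numbers, and the read depth is unknown. Library sums ran from 446010 to 454548, and 17408 to 18595 genes were above 0, the most in control library 2. All 8 markers of the 2-cell programme and all 8 oocyte markers were detected, with summed values of 1041 to 1140 and 7697 to 8212 in controls and of 989 to 1244 and 7894 to 8449 after PNMC. Of 8 cumulus cell markers, 2 passed the filter on low values (Amhr2 and Tnfaip6), and Ptx3, Foxl2 and Inhba were at 0 in every library. The summed values were 24.3 to 27.6 in controls and 18.9 to 29.01 after PNMC. Most of each sum was Amhr2 alone, at 22.7 and 21.6 in controls and 18.2, 26.1 and 17.1 after PNMC. Of 6 sperm markers, 1 passed, Prm1 and Tnp2 were at 0, and the sums were 4.22 to 4.58 and 4.54 to 6.89. Of 7 blood cell markers, 3 passed (Cd74, Hba-a1 and Hba-a2), and these made up most of each sum. Hbb-bt was at 0 in every library. The sums were 14.6 to 25.7 in controls and 10.6 to 13.4 after PNMC, with no overlap. Taken singly, Hba-a1 and Hba-a2 overlapped between groups and Cd74 did not. The part of the cell type markers in the Ube2 values was not tested. In whole embryos, fewer cells of a type and less RNA per cell cannot be told apart.

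Most of the Ube2 family was expressed at the 2-cell stage. In every library, 31 of the 38 genes were above 0, and these same 31 reached 1 in 2 or more libraries, the filter on low values, and were tested. Ube2l6, the E2 of ISG15, along with Ube2ql1, Ube2dnl2 and Ube2uos were listed at 0 in all 5 libraries. Ube2r2, Ube2d2b and Ube2q1 were above 0 in some libraries, with highest values of 0.535 in PNMC library 1, 0.52 in control library 2 and 0.0712 in control library 2. A 0 in such a table can be an undetected transcript or a failed estimate. Among the 31 genes tested, 18 averaged at least 10 over the 5 libraries (58.1%, against 41.9% of the 12734 genes tested) and 7 averaged at least 100 (22.6%, against 5.89%).

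**Figure D1:**
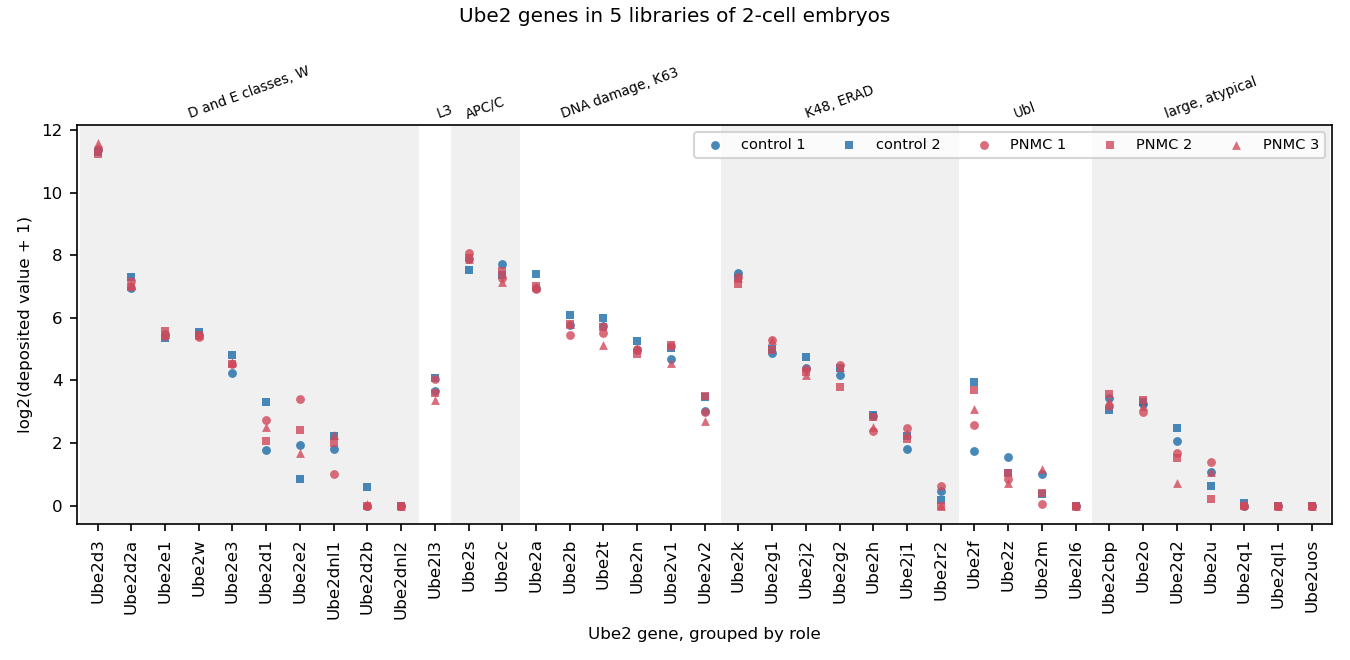
Level of the Ube2 genes on a log2(value + 1) axis, grouped by role and ordered by mean within a role. Blue symbols are the 2 controls and red symbols the 3 PNMC libraries; Ube2d3 lies at the top in all 5 libraries, and the colours are interleaved for most genes.

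No Ube2 gene passed the test of PNMC against control. By limma with Benjamini-Hochberg adjustment over all 12734 genes, 0 of 31 members had an adjusted p under 0.05, where 0% of all genes did, and the smallest adjusted p among members was 0.967. Before adjustment, limma gave a p under 0.05 for 2 members, Ube2e2 with higher and Ube2q2 with lower values, or 6.45%, against 4.99% of all genes tested (1.73% higher and 3.27% lower). That count was 5 without control library 1 and 1 without PNMC library 1 or 3. Mean log2 values were higher after PNMC in 12 members and lower in 19, or 38.7% and 61.3%, against 43.1% and 56.9% of all genes tested. That split became 15 and 16 after scaling libraries to a common median or without control library 2, 8 and 22 without control library 1 and 9 and 21 without PNMC library 3. The median log2 change was -0.09, against -0.05 over all genes tested, and it was -0.18 without control library 1 and -0.01 without control library 2. The PNMC libraries lay entirely below both controls in 6 members (Ube2t, Ube2j2, Ube2w, Ube2h, Ube2q2 and Ube2z) and entirely above them in 0. Together that is 19.4%, against 19.9% of all genes tested (11.9% lower and 7.97% higher).

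**Figure D2:**
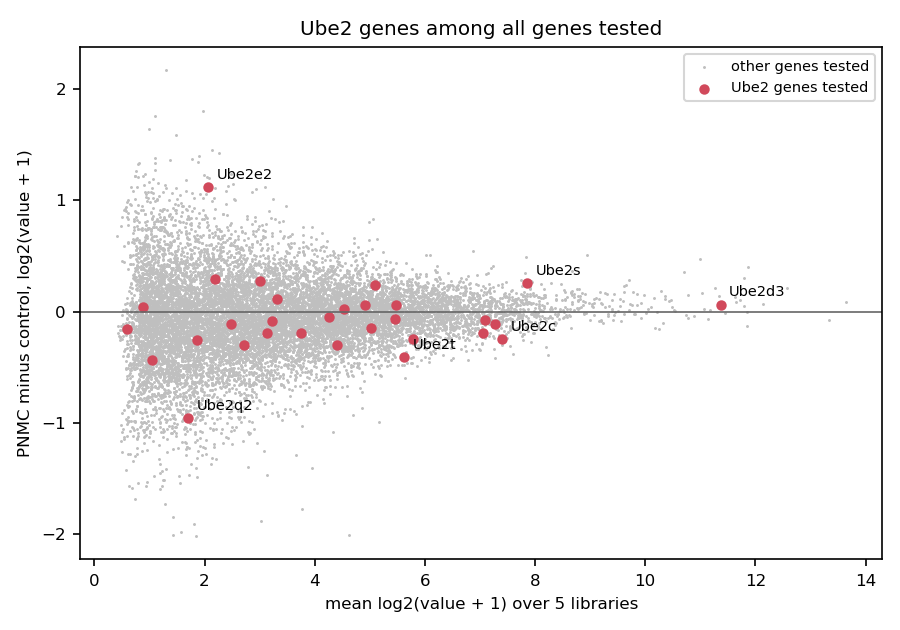
Difference between PNMC and control against the mean level, both on the log2(value + 1) scale, for the other genes tested (grey) and for Ube2 genes tested (red). The Ube2 genes lie within the cloud of other genes, from -0.96 for Ube2q2 to 1.12 for Ube2e2, and those with high means lie close to 0.

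The intervals give the size of change that these libraries leave possible. For 22 of the 31 members the whole 95% interval was between -1 and 1 in log2(value + 1) (71.0%, against 61.4% of all genes tested). That held for 16 of 16 members with a mean of at least 20, against 98.2% of all genes tested at that level. It held for 6 of 8 with a mean from 5 to 20, against 76.8%, and for 0 of 7 below 5, against 25.8%. For 25 members (80.6%) the control libraries lay farther from each other than the group means did, against 64.8% of all genes.

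**Figure D3:**
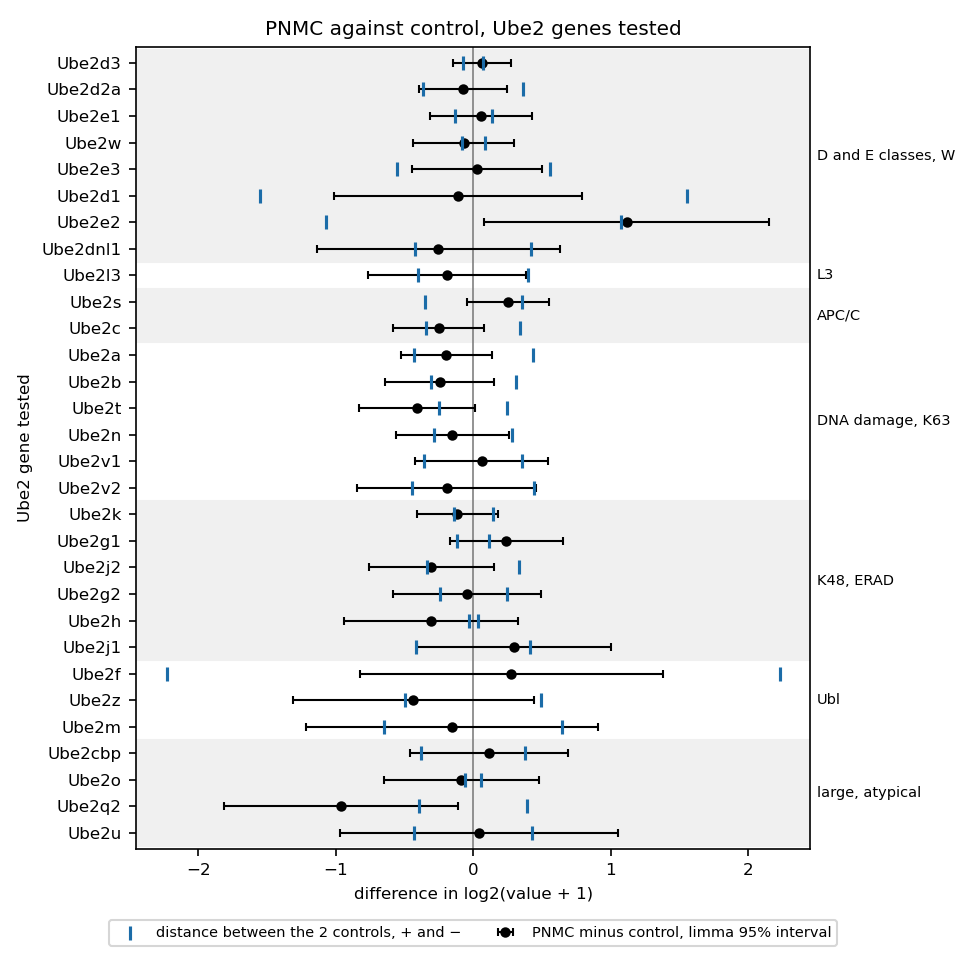
Difference between PNMC and control for Ube2 genes tested, in log2(value + 1), with limma's 95% interval (black), grouped by role. Blue ticks give the distance between the 2 control libraries in both directions; of the intervals shown, those of Ube2e2 and Ube2q2 leave out 0, and both fail the adjusted threshold.

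The D class and its relatives start chains with many E3 ligases. With the E class and Ube2w, 8 of 10 were tested, 4 with higher and 4 with lower means, or 6 and 2 after median scaling. Ube2d3, which pairs with a wide range of ligases, had the highest listed value of the family, at 2647 and 2519 in control libraries 1 and 2 and at 2689, 2386 and 3059 in PNMC libraries 1, 2 and 3. Control values sat inside the PNMC range. The group means were 2583 ± 90.1 (SD, n = 2) and 2711 ± 337 (SD, n = 3), a log2 change of 0.06 with a 95% interval of -0.15 to 0.28 (limma adjusted p = 0.993), and the sign turned under quantile normalisation and without PNMC library 3. Its paralog Ube2d2a was at 123 and 159 in controls and at 143, 124 and 132 after PNMC, with overlapping groups. Ube2d1 ranged from 2.42 to 9.03, with both ends in the controls. Ube2dnl1 was lower still, from 1.04 to 3.74 over the 5 libraries.

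Among the E class, Ube2e1 was steady, at 44.3 and 40.3 in controls and 41.4, 46.7 and 44.05 after PNMC. Part of its exons, 16.1%, overlaps the opposite-strand gene Nkiras1, listed at a mean of 34.02, and the library kit keeps no strand. Ube2e3 ranged from 17.96 to 26.9, again with both ends in the controls. Ube2e2 was the member with the largest positive difference, at 2.81 and 0.812 in controls and 9.72, 4.34 and 2.24 after PNMC. PNMC library 1 stood highest, and PNMC library 3 lay below control library 1, so the groups overlapped. Its log2 change was 1.12 (SE 0.482, 95% interval 0.08 to 2.15, limma adjusted p = 0.968). It was 0.58 without control library 2, 0.66 without PNMC library 1 and 1.65 without control library 1. Ube2w, which attaches ubiquitin to protein N-termini, varied least of all the tested members between its lowest and highest library. It was listed at 43.00 and 45.6 in controls and 40.7, 42.8 and 42.9 after PNMC, without overlap and with a log2 change of -0.07, which was 0.01 after median scaling (adjusted p = 0.993 by limma as deposited). Ube2l3, the partner of HECT and RBR ligases such as parkin, ranged from 9.35 in PNMC library 3 to 15.8 in control library 2. Opposite-strand exons of Ydjc cover 28.6% of its exon bases.

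Ube2c and Ube2s serve the anaphase-promoting complex (APC/C), the ligase that ends mitosis: Ube2c starts chains on its substrates and Ube2s extends them. Both were among the highest members. Opposite-strand exons of Tnnc2, listed at a mean of 1.29, cover 22.8% of the exon bases of Ube2c. Those of Rpl28, listed at a mean of 39.9, cover 3.6% of the exon bases of Ube2s. Their part in the values of Ube2c and Ube2s, and in the ratio given below, was not tested. Ube2c was listed at 211 and 166 without PNMC and at 153, 181 and 139.7 with it. PNMC library 2 lay above control library 2, so the groups overlapped, and the log2 change was -0.25 (95% interval -0.58 to 0.08, limma adjusted p = 0.993). Ube2s was at 234 and 183 in controls and at 269.8, 240.1 and 233 after PNMC, where control library 2 was lowest and PNMC library 3 lay just below control library 1. Its log2 change was 0.26 (95% interval -0.04 to 0.55, limma adjusted p = 0.993). Each control moved both: without control library 1 the log2 changes were -0.0792 for Ube2c and 0.43 for Ube2s, and without control library 2 they were -0.42 and 0.078. Without PNMC library 3, that of Ube2c was -0.17.

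Members with roles in DNA damage tolerance, histone ubiquitination and lysine-63 chains were all detected, and 5 of 6 averaged lower after PNMC, with a median log2 difference of -0.19 (-0.05 over all genes tested). Both scalings left 5 of 6 lower, but without control library 2 it was 3 of 6, with a median of 0.0059, and without control library 1 it was 6 of 6, with a median of -0.41. Ube2a and Ube2b, the mouse counterparts of yeast Rad6, modify histone H2B and the replication clamp PCNA. Ube2a was at 124 and 167 in controls and 119.9, 129 and 127 after PNMC: control library 2 stood apart from the other 4. Ube2b was also highest in control library 2, at 53.7 and 66.8 in controls and 42.3, 55.1 and 54.8 after PNMC, a difference of -0.24 on the log2 scale (SE 0.185, limma adjusted p = 0.993). Ube2t, which modifies FANCD2 in crosslink repair, was at 52.6 and 62.5 in controls and at 45.1, 50.8 and 34.5 after PNMC. All 3 PNMC values were below both controls, the lowest in PNMC library 3. The means were 57.5 ± 7.06 (SD, n = 2) and 43.5 ± 8.27 (SD, n = 3), which is a difference of -0.41 on the log2 scale (SE 0.196, 95% interval -0.83 to 0.01, limma adjusted p = 0.986), or -0.26 without PNMC library 3. Ube2n, the only E2 devoted to lysine-63 chains, was at 30.3 and 37.1 in controls and 31.1, 27.95 and 31.3 after PNMC, with PNMC library 2 lowest and control library 2 highest. Its cofactors Ube2v1 and Ube2v2 ranged over the 5 libraries from 22.8 to 34.4 and from 5.54 to 10.3. For Ube2v1, 63.5% of its 50-base stretches also occur in other transcripts, chiefly the read-through gene Gm20431, so its value is uncertain.

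The builders of lysine-48 chains and the E2s of endoplasmic reticulum-associated degradation formed a group of 7, of which 6 were tested, 2 with higher and 4 with lower means, or 3 and 3 after median scaling or without control library 2 or PNMC library 2. Ube2k, which makes lysine-48 chains, was at 170.1 and 154 in controls and 158, 136 and 155 after PNMC, with PNMC library 2 lowest and control library 1 highest. Ube2g1 was at 28.6 and 31.1 in controls and 37.9, 30.5 and 38.5 after PNMC: PNMC libraries 1 and 3 were above both controls and PNMC library 2 between them (log2 change 0.24, SE 0.191, limma adjusted p = 0.993). Its relative Ube2g2, which works with the membrane ligase gp78 at the endoplasmic reticulum, ranged from 12.9 to 21.7, both in PNMC libraries. The membrane-anchored pair gave differences of opposite sign. Ube2j2 was at 20.3 and 25.9 in controls and 19.8, 18.3 and 17.3 after PNMC, without overlap (log2 change -0.30, SE 0.213, limma adjusted p = 0.993). Ube2j1 was at 2.51 and 3.67 in controls and 4.55, 3.41 and 4.03 after PNMC, with overlap (log2 change 0.30, SE 0.327, limma adjusted p = 0.993). Ube2h, the E2 of the CTLH ligase, was at 6.34 and 6.497 in controls, which nearly coincided, and at 4.28, 6.199 and 4.69 after PNMC, all lower (log2 change -0.30, SE 0.294, limma adjusted p = 0.993). Of its 50-base stretches, 44.2% occur in other transcripts such as Gm26526.

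Of the 5 E2s of the ubiquitin-like modifiers, 4 were tested, 2 with higher and 2 with lower means. Of the NEDD8 E2s, Ube2m was at or near the floor, from 0.0314 to 1.25. Ube2f, the other one and singled out here after its values were seen, differed most between the controls of all tested members, at 2.33 and 14.6, and the PNMC values of 4.96, 12.01 and 7.58 lay between them. Ube2z, which loads ubiquitin or FAT10 from Uba6, was low everywhere, from 0.645 in PNMC library 3 to 1.93 in control library 1, without overlap.

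Of the 7 large or atypical members, 4 were tested, 2 with higher and 2 with lower means. Ube2q2 had the smallest p of the family. It was listed at 3.22 and 4.55 in controls and at 2.22, 1.88 and 0.654 after PNMC, all lower, with PNMC library 3 lowest. The means were 3.89 ± 0.939 (SD, n = 2) and 1.59 ± 0.825 (SD, n = 3), which is a difference of -0.96 on the log2 scale (SE 0.395, 95% interval -1.81 to -0.11, limma adjusted p = 0.967). That difference was -0.67 without PNMC library 3 and -1.16 without control library 1. Of the 50-base stretches of Ube2q2, 16.4% also occur in Gm4895. The annotated paralog of Ube2q2, Ube2q1, was at 0 in 3 libraries. Ube2o, a hybrid E2 and E3 enzyme known from red cell maturation, ranged from 6.97 to 9.34, both in PNMC libraries, with the controls between. Ube2cbp ranged from 7.34 to 10.9, and Ube2u from 0.148 to 1.66.

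Across the family, control library 2 most often held the highest value. It did so for 13 of the 31 tested members (41.9%, against 24.7% of all genes tested), while control library 1 did so for 3. The median deviation of the members from their own means was 0.14 in control library 2 and between -0.03 and 0.0049 in the other 4. Over all genes tested, that deviation was 0.05 in control library 2. Control library 2 also listed the most genes above 0 and the highest sum of blood cell markers (25.7). In that library the sum came from Cd74 (12.8), Hba-a1 (8.29) and Hba-a2 (4.53), with Ptprc at 0.0412. Hbb-bs, Hbb-bt and Lyz2 were at 0 there, and Lyz2 was highest in control library 1 (0.946). The part of the gene number or of the marker sum in the Ube2 values was not tested.

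**Figure D4:**
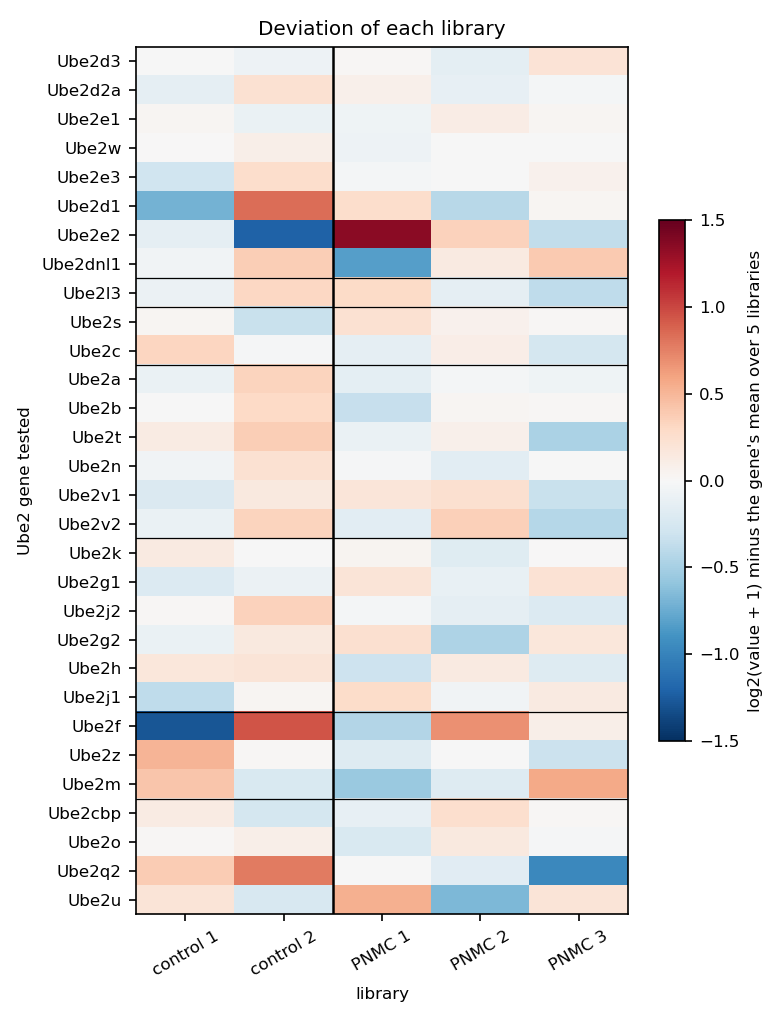
Deviation of each library from the gene's mean over the 5 libraries, in log2(value + 1), for Ube2 genes tested, grouped by role; red is higher and blue lower. The column of control library 2 is red for most genes, and the strongest colours belong to Ube2f, Ube2e2, Ube2d1 and Ube2q2, all with means below 10.

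Other genes of the cascade were taken from lists made with earlier results of these data known. None of them passed the adjusted limma threshold. Of the 4 ubiquitin genes, 3 had lower and 1 higher means after PNMC, or 2 and 2 after median scaling. The polyubiquitin gene Ubb was at 1226 and 1237 in controls and 1116, 1222 and 1002 after PNMC, all lower (log2 change -0.15, limma adjusted p = 0.993). Among the E1 enzymes, 6 of 9 were tested, 4 with higher and 2 with lower means, or 5 and 1 after either scaling. The split turned to 2 and 4 without PNMC library 1 and was 3 and 3 without control library 1. It stayed at 4 and 2 without PNMC library 2, PNMC library 3 or control library 2. Uba1, the main ubiquitin E1, was at 79.1 and 78.9 in controls and 71.8, 65.8 and 83.6 after PNMC. Uba3 and Nae1 form the NEDD8 E1, and in both the PNMC values lay above both controls. That is 2 of the 6 E1 enzymes tested, with 0 below, against 7.97% above and 11.9% below of all genes tested. For the modifier Nedd8 and the NEDD8 E2s Ube2m and Ube2f the groups overlapped, with log2 changes of -0.08, -0.15 and 0.28. Uba3 was at 112 and 102 in controls and 127, 142 and 134 after PNMC (log2 change 0.33, SE 0.139, limma adjusted p = 0.967), and Nae1 at 67.9 and 72.9 in controls and 75.1, 76.7 and 79.5 after PNMC (limma adjusted p = 0.993).

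The modifiers can be read along their cascades. For ISG15, the E1 Uba7 and the E2 Ube2l6 were both at 0 in every library, and Isg15 itself was above 0 in control library 1 (1.89) and PNMC library 2 (1.69) only. For SUMO, Sumo3 was at 152 and 149 in controls and 158, 150.03 and 163 after PNMC, and the E1 subunits Sae1 and Uba2 had means over the 5 libraries of 30.7 and 70.9. Sumo2 was listed lower, at 18.5 and 12.9 in controls and 13.5, 12.6 and 9.97 after PNMC. Of the 7 modifier genes tested, 3 had higher and 4 lower means, or 4 and 3 after median scaling. Urm1 was at 5.21 and 6.45 in controls and 4.37, 4.103 and 5.04 after PNMC, without overlap (limma adjusted p = 0.993).

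Some genes with the conjugating fold carry other names, and all 9 of those listed were tested, 5 with higher and 4 with lower means, or 6 and 3 after median scaling. That split became 3 and 6 without PNMC library 1, PNMC library 3 or control library 1. It was 4 and 5 without PNMC library 2, and 7 and 2 without control library 2. Cdc34b had the smallest p of any listed gene: it was at 203 and 169 in controls and 232, 277 and 278 after PNMC, all higher, with means of 186 ± 24.1 (SD, n = 2) and 262 ± 26.2 (SD, n = 3), or 0.49 on the log2 scale (SE 0.136, limma adjusted p = 0.868). Cdc34, an E2 of the cullin ligases, was at 48.4 and 63.6 in controls and 67.3, 64.3 and 64.4 after PNMC, again without overlap but by a small margin (limma adjusted p = 0.993). RefSeq gives Cdc34b as a synonym of Ube2r2, but the table lists them apart, and Ube2r2 was near 0. Tsg101, an inactive relative that sorts membrane proteins, was at 78.5 and 83.6 in controls and 85.6, 69.8 and 91.3 after PNMC.

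Of the E3 ligases and cofactors that work with these E2s, 36 of 39 were tested, 16 with higher and 20 with lower means, or 22 and 14 after median scaling, and a median log2 difference of -0.03 as deposited. The groups did not overlap in 8 of the 36, or 3 higher and 5 lower, where 19.9% of all genes tested did not overlap (7.97% higher and 11.9% lower). Skp1a and Cul1, of the SCF ligase, had the highest values, at 745 and 831 in controls and 765, 775 and 785 after PNMC for Skp1a and at 505 and 534 in controls and 537, 500.4 and 615 after PNMC for Cul1. Anapc11, the APC/C subunit that binds Ube2c, had the smallest p of the list, at 23.3 and 29.7 in controls and 17.7, 20.95 and 13.2 after PNMC, all lower (log2 change -0.60, SE 0.238, limma adjusted p = 0.967). Rnf8, which directs Ube2n to broken DNA, was at 21.02 and 40.4 in controls and 48.1, 48.1 and 34.1 after PNMC, where control library 2 lay within the PNMC range (limma adjusted p = 0.986).

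The ratio of a pair of genes within a library is the same whatever single factor the library is multiplied by. For 9 pairs of partners or paralogs, chosen after their values were seen, the log2 ratio was set side by side between groups as a description, with no test. The groups did not overlap in 3 of the 9 pairs. For all genes tested singly that share was 19.9%, which is an unlike measure. No share over other gene pairs was computed, so an excess among these pairs cannot be read from the count. For Ube2c over Ube2s the log2 ratio was -0.15 in control library 1 and -0.14 in control library 2, against -0.82, -0.41 and -0.74 with PNMC. The controls nearly coincided and every PNMC library was lower. For Ube2j1 over Ube2j2 it was -3.02 and -2.82 without PNMC and -2.12, -2.42 and -2.10 with it, all higher. For Ube2g1 over Ube2g2 it was 0.75 and 0.61 against 0.80, 1.24 and 0.90, again all higher. The ratio of Ube2a to Ube2b overlapped, at 1.202 and 1.32 in controls and 1.502, 1.23 and 1.21 after PNMC.

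**Figure D5:**
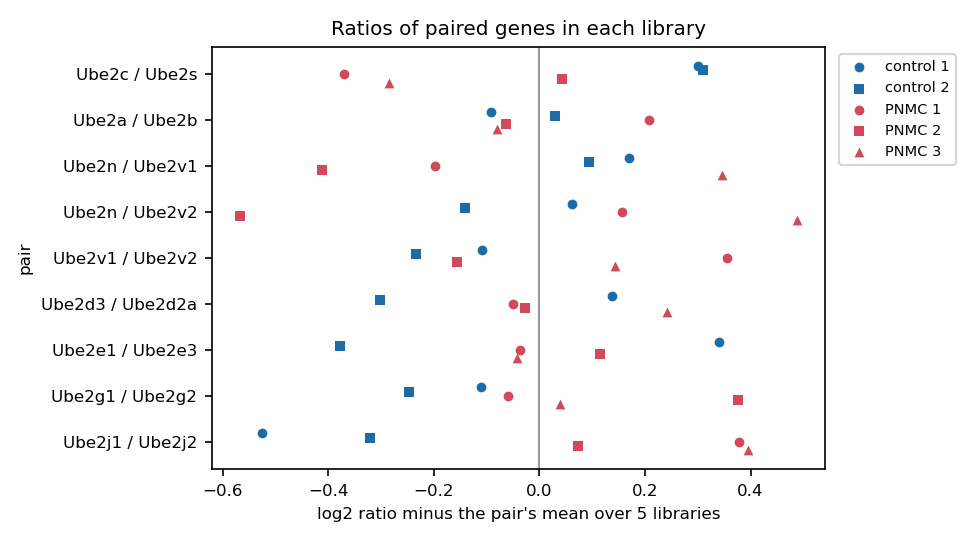
Log2 ratio of 9 gene pairs in each library, as the distance from the pair's mean over the 5 libraries. Blue symbols are controls and red symbols PNMC libraries; the colours separate for Ube2c / Ube2s, Ube2g1 / Ube2g2 and Ube2j1 / Ube2j2 and overlap for the other 6 pairs.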

How the data were processed

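Per the submitters' processing notes, the tools were DESeq2 1.16.1, HTSeq, Trimmomatic and HISAT2 2.0.5, with GRCm39 as the build; no source used here names the annotation or the step behind the table. The authors deposited a normalised signal per gene and library, fractional and never negative, with no stated unit and whole reads could not be worked back from it, so no count test was run. Columns were matched to samples by title.

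The 12734 genes reaching 1 in 2 or more libraries were transformed to log2(value + 1), which understates changes of low genes, and tested with limma 3.58.1 (R 4.3.3; trended, robust variances, no covariate), with Benjamini-Hochberg adjustment at 0.05. The procedure was tested on simulated data with independent, normally distributed noise. Changes were added to genes with higher means only, so power for low members was not examined. The members and lists were chosen with earlier results of these data known. Some genes that the rule names are not reported or drawn here, though counts and medians cover them. Coding sequences, 50-base stretches and exon overlaps came from GENCODE M21, whose build differs from that of the table, and coordinates were left out. Named genes were the 12 members with the highest means, the 5 higher and 5 lower ones lowest in p, members without overlap and a mean of at least 5, 6 members picked by role, and per list the 2 genes with the highest mean and the 2 with the smallest p; others, and the 9 pairs, were chosen after their values were seen. The alternatives were quantile and median scaling, a replicate block, variances not robust, leaving out each library, a minimum of 10 or none, and 0.1 as the pseudocount.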

Additional observations from a re-analysis of the deposited data

How the results depend on the processing

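The count of Ube2 genes at a limma adjusted p under 0.05 was 0 under all 12 alternatives. The count at an unadjusted p under 0.05, which was 2, became 1 with no filter on low values, 0 with a minimum of 10, and from 1 to 5 with 1 library left out. The median log2 change of -0.09 became -0.0102 after median scaling and ran from -0.178 to -0.0084 with 1 library left out. The replicate numbers 1 and 2 occur in both groups, but nothing says that they mark a shared culture. Deviations of same-numbered libraries from their group means correlated at -0.058 and -0.043 over genes, and with the replicate block the unadjusted count was 1. The log2 change of Ube2d3 was -0.0267 under quantile normalisation and -0.0278 with the replicate block, and ran from -0.0278 to 0.151 with 1 library left out, and that of Ube2w was 0.0143 after median scaling. With 1 library left out, the log2 change ran from -0.471 to -0.137 for Ube2j2, from 0.0895 to 0.505 for Ube2j1 and from -0.399 to -0.0897 for Ube2b. With the replicate block, 9 members had higher and 22 lower means. Replicate number 3 occurs in the PNMC group only, so the block takes up PNMC library 3 whole. The log2 changes of the named genes were those without that library, such as -0.0278 for Ube2d3, so the block is not a separate check. Where a setting moved a value, the cause was not tested. The unknown depth gives no counting error, and tested members with a mean below 5 have intervals that reach past -1 or 1.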
